A study of Mus musculus with 6 samples.

Results

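The genes of glucose uptake, glycolysis, lactate handling and glycogen storage were followed in the postnatal mouse heart after a week on ETX. They were named by pathway step, with earlier results of these data known: 32 genes were sought on the arrays, 28 of them lay on at least 1 transcript cluster (the array's unit for a transcript) assigned to that gene alone, and these are 28 of the 19938 genes measured in this way. Gapdh lay only on clusters shared with other genes, and Gpi1, Pfkfb1 and Eno1 were not analysed here. All 28 passed the filter on low values. The RNA was total RNA of whole hearts taken on postnatal day 14 from the C57BL/6J strain. One group of 3 hearts had been given ETX for 1 week (replicates 6, 7 and 10) and the other, also of 3 hearts, the vehicle PBS, phosphate-buffered saline (replicates 3, 9 and 12); the labels call them biological replicates and give neither sex, dose, route nor litter. The labels do not spell ETX out. In work on heart metabolism the abbreviation is common for etomoxir, an inhibitor of the carnitine palmitoyltransferase that admits long-chain fatty acids to mitochondria, and no value here bears on that identity. The question was whether the genes of glucose use differed between the hearts of the 2 groups. The values are log2 signals made by the authors with RMA, and 6 arrays limit the precision.

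Glucose enters heart cells through facilitative transporters of the Slc2a family. Slc2a1 encodes the GLUT1 protein of the foetal and many other cells, and Slc2a4 the insulin-responsive GLUT4 protein of muscle and fat. Hexokinase traps the sugar, phosphofructokinase commits it to glycolysis, and the lower enzymes yield ATP and pyruvate, which lactate dehydrogenase interconverts with lactate. Glucose can also be stored as glycogen by glycogen synthase and released by glycogen phosphorylase. The foetal heart lives largely on glucose and lactate and turns to fatty acids after birth, and many steps have a widely expressed isoform and a muscle isoform.

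Of 14953 genes tested in limma, 170 were higher and 363 lower in ETX at an adjusted p under 0.05, 533 in all. The hearts also differed in tissue markers, given here as the mean log2 signal of each marker list. The 10 cardiomyocyte markers, all measured, lay between 11.98 and 12.02 in PBS and between 11.90 and 12.03 in ETX. The 9 lung epithelium markers averaged 5.90 in PBS replicate 3 and 7.31 in PBS replicate 9, against 3.44 in PBS replicate 12 and 3.47 to 3.58 in ETX, and the 6 atrial markers were high in PBS replicate 3 (8.26) and in ETX replicates 6 and 7 (7.52 and 7.65) against 5.58 to 6.13 in the other hearts. Of 7 erythroid markers only Alas2 and Slc4a1 had clusters of their own, and their mean was 7.06 to 7.30 in PBS and 7.59 to 7.94 in ETX; 4 clusters shared among globin genes overlapped between the groups. The 6 fat cell markers were at 5.43 to 5.52 in PBS and at 5.66 to 5.96 in ETX, but did not move alike. Ucp1 stood at 5.72 in ETX replicate 6 and at 3.77 or less in the other hearts. Cidea was higher in every ETX heart. Plin1, Lep and Fabp4 overlapped between the groups, and Adipoq lay under the filter. Mean macrophage marker signal was 6.90 to 7.10 in PBS and 6.47 to 6.62 in ETX, and that of endothelial markers 8.95 to 9.02 and 8.62 to 8.80. The 9 skeletal muscle markers were at 4.84 to 4.95 in PBS and 4.91 to 4.98 in ETX. The part of these cell types in the results below was not tested, and in whole hearts fewer cells of a type and less RNA per cell cannot be told apart.

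Glycogen synthase Gys1 was the member that passed the test: it rose 1.31-fold in ETX (95% interval 1.17 to 1.46, limma adjusted p = 0.0318). Around it, the 5 transporters and 7 of 8 lower glycolytic enzymes averaged higher in ETX, of the phosphofructokinase subunits and their Pfkfb regulators Pfkl alone had an unadjusted p under 0.05, the lactate genes showed differences near 0 or of either sign, and the muscle phosphofructokinase Pfkm and the glycogen phosphorylase Pygm lay a little lower. Past the adjusted threshold were thus 1 of 28 members, or 3.57%, higher in ETX and 0 lower, where 1.14% of all genes tested were higher and 2.43% lower. Taken in either direction, the share called was the same as the background, 3.57% of members against 3.56% of all genes tested. At an unadjusted limma p under 0.05 there were 9 members higher and 0 lower, that is 32.1% of the 28, against a background of 8.86% higher and 13.1% lower. In 12 members all ETX hearts lay above all PBS hearts (42.9%, background 11.6%), in 2 members, Pfkm and Pygm, all lay below (7.14%, background 16.1%), and in 14 the groups overlapped. The difference was above 0 in 22 of 28 members, or 78.6%, against 48.4% of all genes, and the median log2 difference was 0.08 against -0.01 over all genes tested. After median centring of the arrays 18 of 28 lay above 0, since the small differences of Pfkp, Pfkfb2, Ldha and Slc16a1 turned sign. The median over all genes tested was then -0.04. The member differences were small, from -0.24 for Pfkfb4 to 0.49 for Slc2a3 on the log2 scale. The median member signal was 8.03 to 8.25 per heart, and the shares over all genes tested were not matched for signal level.

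**Figure D1:**
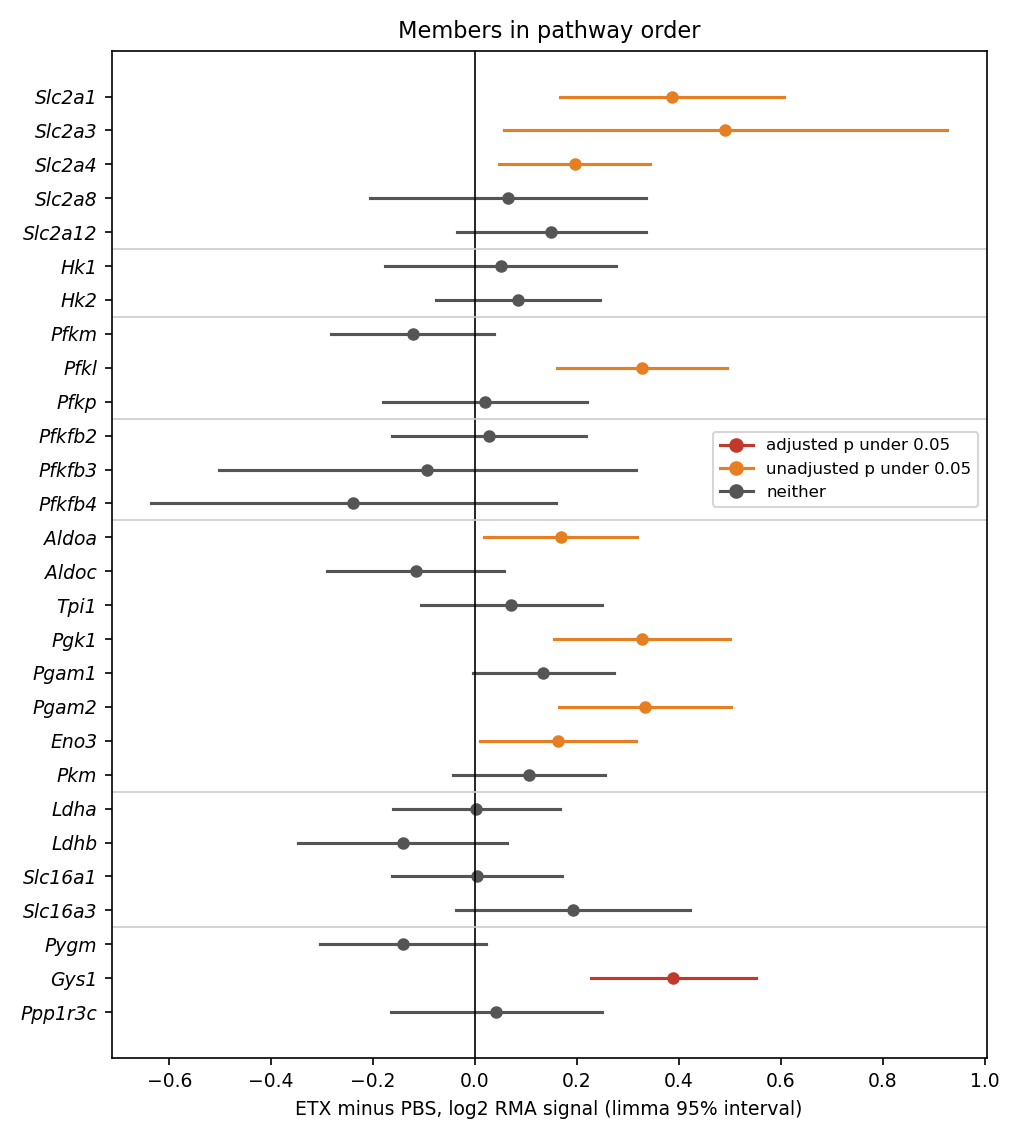
Difference between ETX and PBS hearts in log2 signal (x axis) for the 28 members measured, in pathway order from glucose transporters at the top to glycogen genes at the bottom, as limma estimates with 95% intervals (3 hearts per group); grey lines part the steps. Gys1 is past the adjusted threshold, 8 others have an unadjusted p under 0.05, and the remaining 19 intervals include 0.

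Promoter windows are given for the called gene and for members whose windows differ in a short motif. ACGTG is a form of the core of the hypoxia response element, and CACGTG, which contains it, is an E-box. Both were sought on both strands in the 250 bases before each start site listed by RefSeq (build GRCm38.p6). The core form GCGTG was not sought. Of the 32 genes 30 matched by symbol, with 47 windows. ACGTG was found in 18 of these windows (38.3%) and in 16.6% of all 32851 windows of this length. The E-box was found in 6 (12.8%), against 6.02% of all windows. Several windows of a gene can overlap, so they are not independent. Capitals below mark every ACGTG or CACGTG on either strand.
Gys1, chr7:45434589-45434838, plus strand: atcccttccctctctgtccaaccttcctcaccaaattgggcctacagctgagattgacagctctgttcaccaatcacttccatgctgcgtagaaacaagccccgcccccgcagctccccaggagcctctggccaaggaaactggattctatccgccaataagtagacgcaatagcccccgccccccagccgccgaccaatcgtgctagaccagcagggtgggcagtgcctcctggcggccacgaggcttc
Slc2a1, chr4:119108495-119108744, plus strand: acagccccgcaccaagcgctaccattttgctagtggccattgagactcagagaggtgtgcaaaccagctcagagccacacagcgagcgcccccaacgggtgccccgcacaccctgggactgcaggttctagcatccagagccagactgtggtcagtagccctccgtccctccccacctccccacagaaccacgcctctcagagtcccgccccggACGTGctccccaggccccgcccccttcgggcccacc
Pgk1, chrX:106186850-106187099, plus strand: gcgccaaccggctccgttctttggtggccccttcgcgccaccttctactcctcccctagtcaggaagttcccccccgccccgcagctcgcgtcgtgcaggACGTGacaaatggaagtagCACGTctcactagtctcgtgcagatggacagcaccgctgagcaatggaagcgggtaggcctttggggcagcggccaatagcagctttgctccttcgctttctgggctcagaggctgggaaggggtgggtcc
Ldha, chr7:46845554-46845803, plus strand: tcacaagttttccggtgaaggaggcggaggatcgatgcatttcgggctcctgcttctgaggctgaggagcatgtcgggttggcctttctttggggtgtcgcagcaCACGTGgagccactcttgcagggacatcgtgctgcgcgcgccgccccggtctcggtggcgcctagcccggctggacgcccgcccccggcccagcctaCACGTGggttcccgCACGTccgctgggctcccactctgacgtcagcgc
Slc2a1 holds the core once and Pgk1 2 times, and Gys1 holds neither motif in this window. Ldha had the most matches of any member, 5 of the core, and 2 E-boxes that overlap 4 of them, and its second window held 0; its log2 difference was 0.00. Pgam2 and Pfkl, which stood beside Slc2a1 and Pgk1 in the size of their difference, had 0 matches. A match is a string of letters and no measurement of binding.

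The glucose transporters all had averages above PBS in ETX, and 4 of the 5 did not overlap with every ETX heart higher, where 11.6% of all genes did so. Slc2a1 was at 6.31, 6.64 and 6.38 in PBS replicates 3, 9 and 12 and at 6.91, 6.81 and 6.77 in ETX replicates 6, 7 and 10, the order used from here on. The lowest ETX heart lay above the highest PBS heart, PBS replicate 9. The fold was 1.31 (95% interval 1.12 to 1.52), with a limma adjusted p of 0.0675, and without PBS replicate 9 it passed (0.0361). Slc2a4 stood at 8.46, 8.44 and 8.46 in PBS and at 8.72, 8.61 and 8.61 in ETX. The PBS hearts were nearly equal and every ETX heart was higher, by 1.15-fold on average (95% interval 1.03 to 1.27, limma adjusted p = 0.133). Slc2a3, the GLUT3 protein of neurons and blood cells, was at 4.72, 4.61 and 4.60 in PBS and at 5.64, 4.84 and 4.92 in ETX. ETX replicate 6 stood well above the other ETX hearts; the log2 difference was 0.49 with it and 0.24 without it (limma adjusted p = 0.181 and 0.188). Slc2a12, a further transporter of heart and muscle, averaged 5.48 ± 0.04 in PBS and 5.63 ± 0.13 in ETX (SD, n = 3 per group), and its groups nearly touched, at 5.52 in PBS replicate 3 and 5.53 in ETX replicate 7. Slc2a8, a transporter of internal membranes, overlapped between the groups with 5.17 ± 0.10 and 5.23 ± 0.23, and lay lower in ETX without ETX replicate 6 (log2 difference -0.05).

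**Figure D2:**
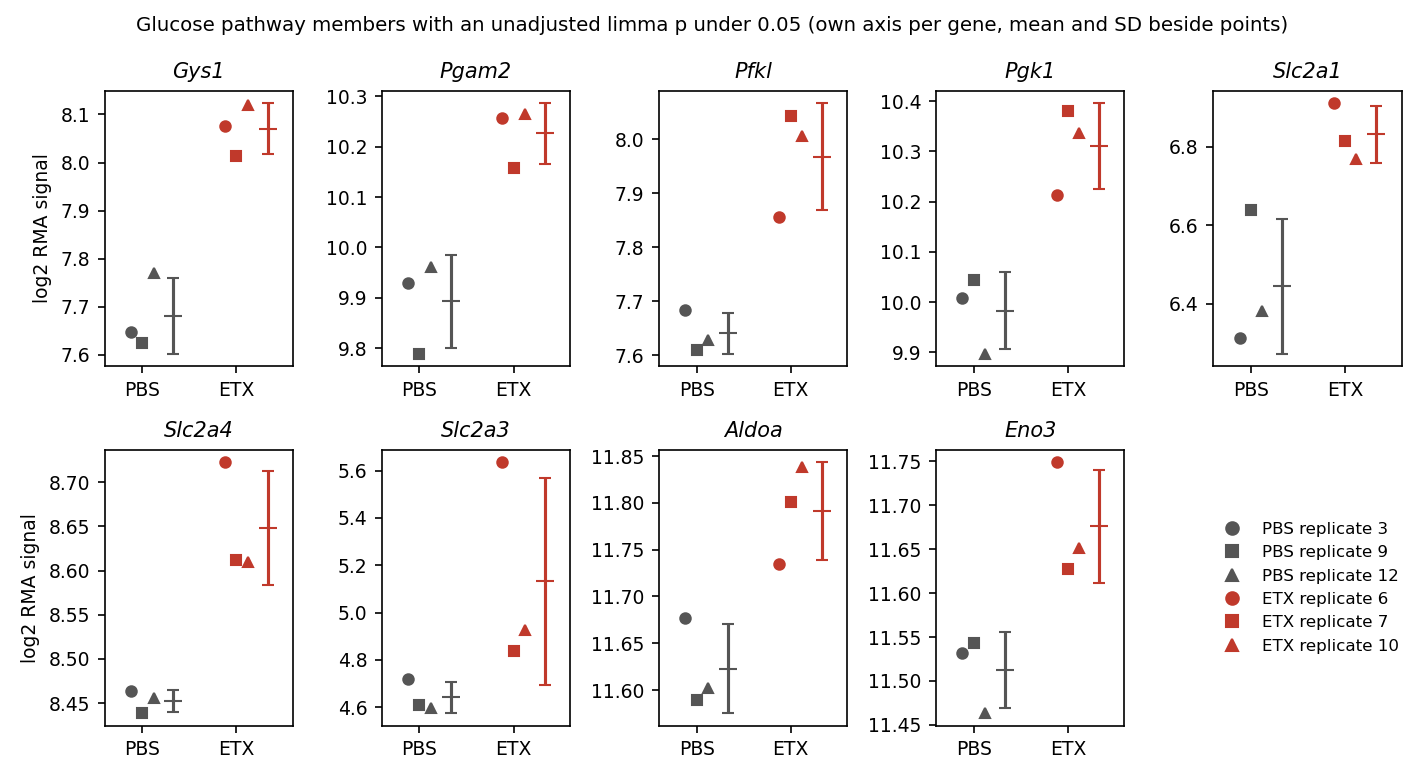
Log2 RMA signal (y axis, separate for each gene) in the 3 PBS hearts (grey) and the 3 ETX hearts (red) for the 9 members with an unadjusted limma p under 0.05, with the mean and SD beside the points. In each panel every ETX heart lies above every PBS heart; ETX replicate 6 stands apart in Slc2a3 at 5.64.

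Hexokinase gave different answers on its 2 clusters of its own. The brighter one, which the rule takes, was at 10.46, 10.73 and 10.83 in PBS and at 10.68, 10.76 and 10.73 in ETX, so that the ETX hearts lay within the PBS range. It is tied to Hk1 by 1 older accession and to no RefSeq transcript. Across the 6 hearts it followed the 16 clusters shared by Hk1 and the ribosomal protein gene Rpl17 (Pearson r 0.71 to 0.98, median 0.93, a description over 6 arrays of shared probes and scaling). The other cluster lists the RefSeq transcripts of Hk1 and read 8.18, 8.07 and 8.16 in PBS and 8.31, 8.31 and 8.32 in ETX, and its r with the same shared clusters was -0.32 to -0.01. On it every ETX heart lay above every PBS heart, with a log2 difference of 0.18 ± 0.06 (SE) and a limma adjusted p of 0.152; the level of Hk1 given by the brighter cluster is therefore uncertain. Hk2, the hexokinase of adult muscle and heart, was at 8.28, 8.23 and 8.14 in PBS and at 8.28, 8.25 and 8.37 in ETX, with overlap and a log2 difference of 0.08 (95% interval -0.08 to 0.25).

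The phosphofructokinase subunits, which catalyse the committed step, did not move alike. Pfkl, the liver-type subunit, was at 7.68, 7.61 and 7.63 in PBS and at 7.86, 8.04 and 8.01 in ETX, 1.26-fold higher on average (95% interval 1.12 to 1.41, limma adjusted p = 0.0518). Pfkm, the muscle subunit, read 9.95, 9.93 and 10.01 in PBS and 9.92, 9.76 and 9.84 in ETX. Each ETX heart lay below each PBS heart, ETX replicate 6 only narrowly, and the log2 difference of -0.12 had a 95% interval of -0.28 to 0.04. Pfkp, the platelet-type subunit, overlapped, with 7.80, 7.61 and 7.89 in PBS and 7.76, 7.73 and 7.86 in ETX. The bifunctional Pfkfb enzymes set the level of the sugar bisphosphate that activates phosphofructokinase, and their 3 measured forms overlapped between the groups. Pfkfb2, the heart form, averaged 7.13 ± 0.12 in PBS and 7.16 ± 0.08 in ETX. Pfkfb3 was at 5.58 in PBS replicate 9, one of the hearts with lung transcripts, and between 4.84 and 5.11 in the other 5 hearts, and Pfkfb4 also had its highest value, 4.36, in PBS replicate 9. Without that heart the log2 difference turned from -0.09 to 0.14 for Pfkfb3 and shrank from -0.24 to -0.05 for Pfkfb4.

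In lower glycolysis 7 of the 8 measured enzymes averaged higher in ETX. Pgam2, the muscle phosphoglycerate mutase, was at 9.93, 9.79 and 9.96 in PBS and at 10.26, 10.16 and 10.27 in ETX (1.26-fold, 95% interval 1.12 to 1.42, limma adjusted p = 0.0512). Pgk1, phosphoglycerate kinase, which makes the first ATP of the pathway, read 10.01, 10.04 and 9.90 in PBS and 10.21, 10.38 and 10.34 in ETX (1.25-fold, 95% interval 1.11 to 1.41, adjusted p = 0.056 in limma). In both, the groups were parted by a gap wider than the SD of either group. The 3 Pgk1 clusters each gave log2 differences of 0.33, and 2 of them held identical values; related copies of Pgk1 exist in the genome, and signal from them cannot be told apart here. The aldolase Aldoa, the form of muscle and red cells, was at 11.68, 11.59 and 11.60 in PBS and at 11.74, 11.80 and 11.84 in ETX. Eno3, the muscle enolase, stood at 11.53, 11.54 and 11.46 in PBS and at 11.75, 11.63 and 11.65 in ETX. Both were without overlap and 1.12-fold higher in ETX, with limma adjusted p of 0.185 and 0.205.

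Smaller differences were seen in the rest of lower glycolysis. Pgam1, the widely expressed mutase, was at 7.74, 7.74 and 7.77 in PBS and at 7.91, 7.87 and 7.85 in ETX, without overlap, with a log2 difference of 0.13 (95% interval -0.00 to 0.27). Its 2 other clusters, identical to each other, gave 0.18, with PBS replicate 12 (7.69) above ETX replicate 10 (7.67). The pyruvate kinase Pkm, which makes pyruvate, averaged 10.22 ± 0.06 in PBS and 10.32 ± 0.03 in ETX and did not overlap, and its second cluster gave a log2 difference of 0.11, as the first did. Tpi1, triose phosphate isomerase, overlapped with 10.24 ± 0.10 and 10.31 ± 0.08. Aldoc, the aldolase of brain, was dim, at 3.64, 3.71 and 3.49 in PBS and at 3.46, 3.51 and 3.53 in ETX, close to the filter level of 3.45, so no fold is given. Gapdh was read only through 25 clusters shared with its many copies. These were bright, with log2 differences of 0.05 to 0.08, and in all 25 every ETX heart lay above every PBS heart; they share probes and count as 1 observation of a mixed signal.

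All 4 lactate genes overlapped between the groups, where 27.7% of all genes tested did not. Ldha, the lactate dehydrogenase subunit of skeletal muscle, was at 11.06, 10.96 and 10.96 in PBS and at 10.91, 11.02 and 11.06 in ETX, with a log2 difference of 0.00 (95% interval -0.16 to 0.17). Ldhb, the heart subunit, read 9.86, 9.74 and 9.65 in PBS and 9.76, 9.56 and 9.51 in ETX, with overlap and a log2 difference of -0.14 (95% interval -0.35 to 0.06), and -0.15 on its other cluster. The lactate transporter Slc16a1, the MCT1 protein, averaged 9.07 ± 0.07 in PBS and 9.07 ± 0.08 in ETX. Slc16a3, the MCT4 exporter of glycolytic cells, was at 4.90, 5.27 and 4.97 in PBS and between 5.21 and 5.29 in ETX, the PBS high being replicate 9; its log2 difference was 0.19 with that heart and 0.30 without it (limma adjusted p = 0.309 and 0.0965).

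Glycogen genes differed in both directions. Gys1, which lengthens glycogen chains, was at 7.65, 7.62 and 7.77 in PBS and at 8.08, 8.01 and 8.12 in ETX. The gap between the groups, from 7.77 to 8.01, was wider than the SD of either (0.08 and 0.05). Pygm, the muscle phosphorylase that breaks glycogen down, read 10.58, 10.49 and 10.55 in PBS and 10.46, 10.30 and 10.43 in ETX, each ETX heart below each PBS heart, with a log2 difference of -0.14 (95% interval -0.30 to 0.02, limma adjusted p = 0.289). Ppp1r3c, which targets protein phosphatase to glycogen, overlapped with 7.85 ± 0.14 and 7.89 ± 0.10. Of 27 further glycogen entries listed for the pathway, with glycogenin under both Gyg and Gyg1, 24 were tested. Of these 2 rose (8.33%, against 1.14% of all genes) and 1 fell (4.17%, against 2.43%). The difference was above 0 in 13 (54.2%, against 48.4% of all genes). All ETX hearts lay above all PBS hearts in 7 (29.2%, against 11.6%). They lay below in 4 (16.7%), close to the 16.1% of all genes. Ugp2, which makes the UDP-glucose that glycogen synthase uses, was at 8.80, 8.79 and 9.07 in PBS and at 9.54, 9.32 and 9.65 in ETX, a rise of 1.54-fold (95% interval 1.28 to 1.83, limma adjusted p = 0.0318). Phosphorylase kinase, which switches phosphorylase on, has 5 subunit genes here, of which 1 rose, 1 fell and 3 overlapped between the groups (log2 difference 0.04 for Phka2, -0.20 for Phkb and -0.11 for Phkg2). Phka1, its muscle regulatory alpha subunit, rose 1.42-fold, from 6.13, 6.20 and 6.23 to 6.77, 6.57 and 6.74 (limma adjusted p = 0.0184). Phkg1, its muscle catalytic gamma subunit, was 1.87-fold lower and fell from 5.34, 5.24 and 5.67 to 4.85, 4.54 and 4.16 (limma adjusted p = 0.0377). No heart of one group reached the range of the other in these genes.

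**Figure D3:**
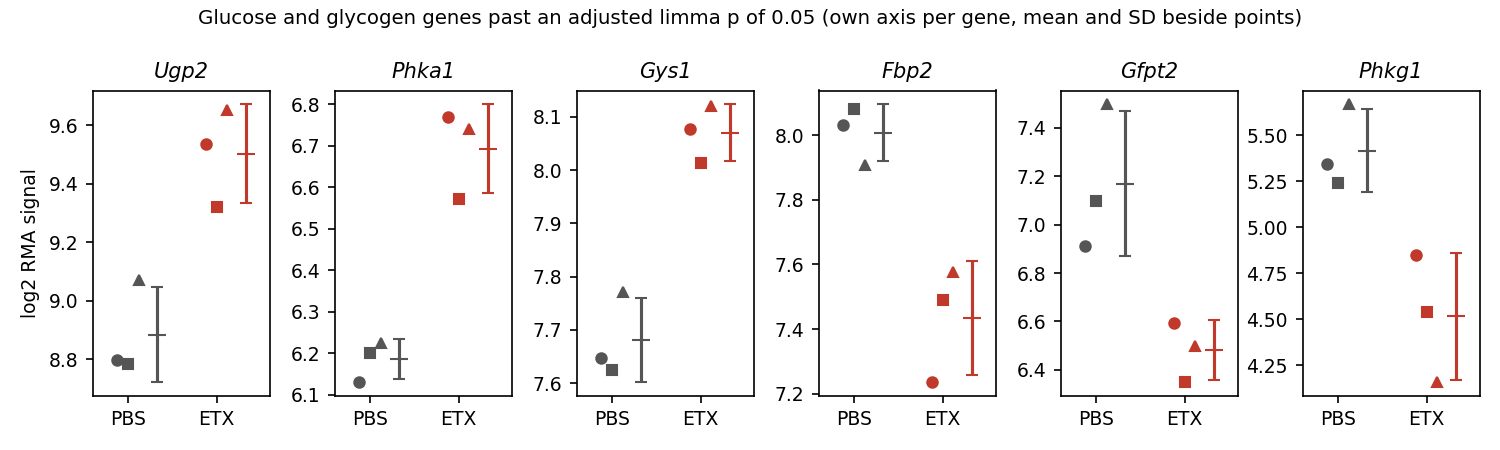
Log2 RMA signal (y axis, separate for each gene) in the 3 PBS hearts (grey) and 3 ETX hearts (red) for the genes of the members and of the wider pathway list past an adjusted limma p of 0.05, ordered from the largest rise to the largest fall, with the mean and SD beside the points. Ugp2, Phka1 and Gys1 lie higher in every ETX heart, and Fbp2, Gfpt2 and Phkg1 lower.

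The wider pathway list, drawn up by function, held 77 entries, of which 72 were measured and 65 tested. Past the adjusted threshold were 5, or 7.69%, against 3.56% of all genes: Ugp2 and Phka1 higher, and Phkg1, Fbp2 and Gfpt2 lower. Fbp2, the muscle fructose bisphosphatase, which opposes phosphofructokinase, was at 8.03, 8.08 and 7.91 in PBS and at 7.24, 7.49 and 7.58 in ETX, 1.49-fold lower (limma adjusted p = 0.0292). Gfpt2, which diverts sugar phosphate to hexosamines, was at 6.91, 7.10 and 7.50 in PBS and at 6.59, 6.35 and 6.50 in ETX, 1.61-fold lower (limma adjusted p = 0.0448). The lowest PBS heart of both genes stayed above the highest ETX heart. By group, 0 of 12 tested genes of other transporters and uptake control, 1 of 13 other glycolytic enzymes, 0 of 4 other lactate genes, 3 of 24 other glycogen genes and 1 of 12 pentose phosphate and hexosamine genes passed. At an unadjusted limma p under 0.05, 10.8% of the 65 were higher and 13.8% lower, close to the shares over all genes, and their median log2 difference was 0.01.

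Whether isoforms of a step differed in their response was read from the difference between 2 clusters within each heart, which does not move with the scaling of an array. Such a difference on the log2 scale says nothing of which isoform is more abundant. Pfkl minus Pfkm was -2.26, -2.32 and -2.39 in PBS and -2.07, -1.72 and -1.84 in ETX, so the liver-type subunit gained on the muscle subunit by 0.45 between the group means, and every ETX heart lay above every PBS heart (exact two-sided permutation p = 0.1, the smallest that 3 against 3 hearts allow, and 0.233 adjusted over the 7 pairs). Pgam1 minus Pgam2 ran the other way, at -2.19, -2.05 and -2.20 in PBS and -2.34, -2.28 and -2.41 in ETX. This shift of -0.20 toward the muscle form had an exact permutation p of 0.1, and 0.233 adjusted over the 7 pairs. It was read on the brightest Pgam1 cluster, and with the other Pgam1 clusters the groups overlap. There Pgam1 and Pgam2 read 7.46 and 9.93 in PBS replicate 3, and 7.77 and 10.16 in ETX replicate 7. Aldoc minus Aldoa was among the 7 pairs but is not read, since Aldoc lay near the filter level. The other 4 pairs overlapped. Slc2a1 minus Slc2a4 differed by 0.19 (exact permutation p = 0.3), where PBS replicate 9 (-1.80) lay among the ETX hearts (-1.84 to -1.80). Pfkp minus Pfkm differed by 0.14, and Ldha minus Ldhb by 0.14, with ETX replicate 6 (1.15) below all PBS hearts and the other ETX hearts (1.46 and 1.55) above them. Hk1 minus Hk2 gave -0.03 with the brighter Hk1 cluster and 0.09 with the cluster of RefSeq transcripts (exact permutation p = 0.9 and 0.2). No pair could pass a threshold of 0.05 in this design.

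**Figure D4:**
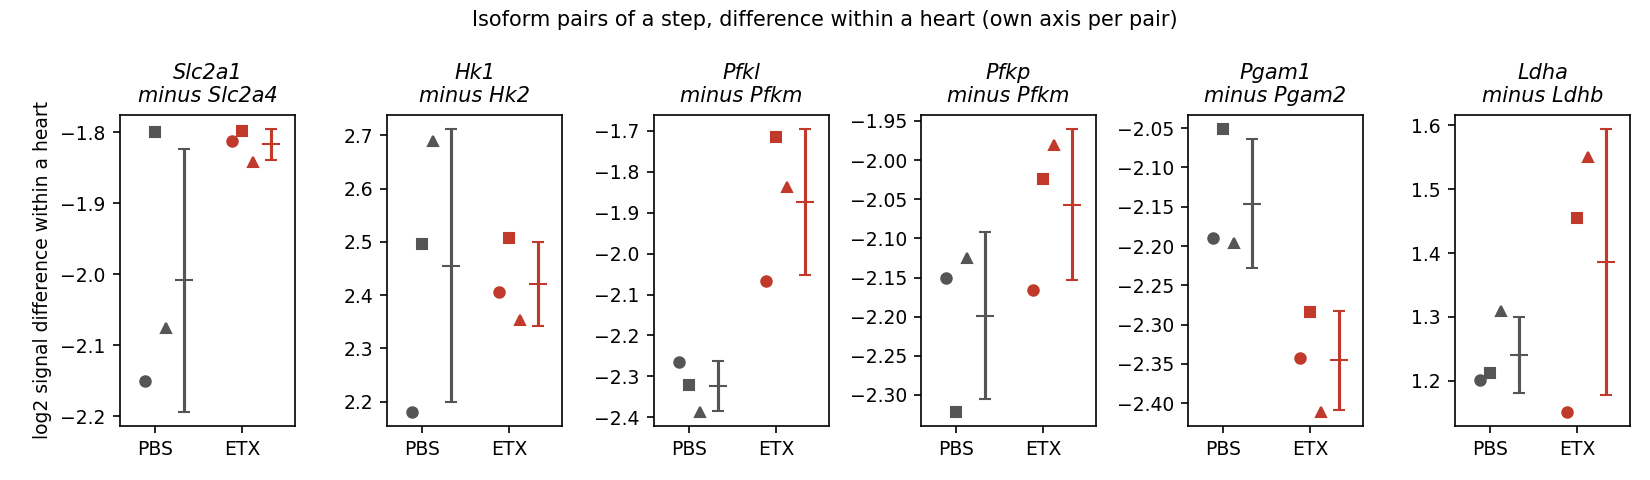
Difference in log2 signal between 2 isoforms within each heart (y axis, separate for each pair; first-named gene minus second-named gene) in 3 PBS hearts (grey) and 3 ETX hearts (red), with the mean and SD. Pfkl minus Pfkm lies higher in every ETX heart, Pgam1 minus Pgam2 (brightest Pgam1 cluster) lies lower, and the remaining pairs overlap. Aldoc minus Aldoa is not drawn because Aldoc lay near the filter level.

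The calls were near the threshold. With 1 heart left out, Gys1 kept a log2 difference of 0.36 to 0.43 and passed only without PBS replicate 12 (limma adjusted p 0.0461, and 0.0732 to 0.0926 without any of the others). Slc2a1, Pfkl, Pgk1 and Pgam2 kept differences of 0.28 to 0.48 in the same fits, and of these only Slc2a1 passed, without PBS replicate 9. Phka1 passed in 3 of the 6 fits, Ugp2, Fbp2 and Phkg1 in 1 each, and Gfpt2 in 0, with limma adjusted p up to 0.15. When the lung score was added as a covariate, the log2 differences were 0.31 for Gys1, 0.50 for Slc2a1, 0.25 for Pgam2, 0.33 for Pfkl and 0.41 for Pgk1, and none of these passed (limma adjusted p 0.119 to 0.235).

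**Figure D5:**
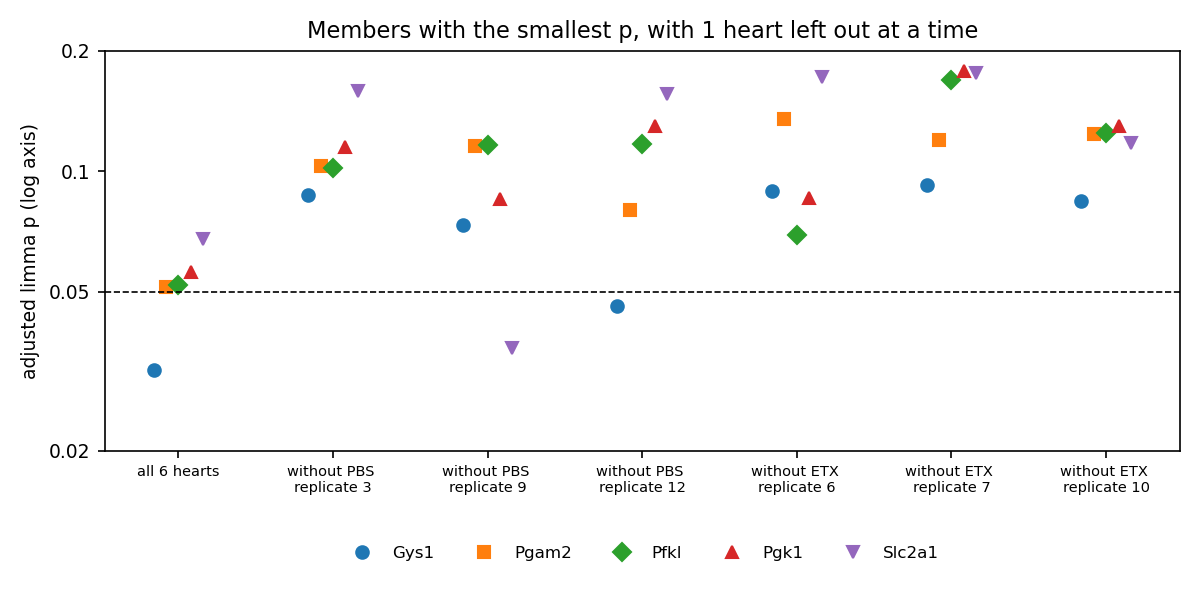
Adjusted limma p (log axis) of the 5 members with the smallest p in the fit of all 6 hearts and in the 6 fits that leave out 1 heart; the dashed line marks 0.05. Gys1 is under the line with all hearts (0.0318) and without PBS replicate 12 (0.0461), and Slc2a1 without PBS replicate 9 (0.0361).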

How the data were processed

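Each of the 6 hearts had its own Affymetrix array. The deposited log2 values were made by the authors with Affymetrix Expression Console and RMA, per the submitters' processing notes. RMA forces the probe signals of arrays onto 1 distribution and averages probes robustly, and this can shrink differences of dim transcripts. The deposited values still had array medians of 4.43 to 4.51. The version of RMA is not given in the sources used here. There is no detection call.

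Of 35556 transcript clusters, 21789 had 1 gene symbol in a platform annotation table. A gene took the cluster with the highest mean over the 6 arrays. The filter removed genes below the lower quartile of gene means (3.45), and 14953 remained. A model of the 2 groups in limma 3.58.1 (R 4.3.3; lmFit, eBayes) gave two-sided p-values, adjusted by Benjamini-Hochberg over these genes at a threshold of 0.05. Folds are back-transformed log2 differences. Isoform pairs were compared with exact permutation tests over the 20 groupings of the hearts, adjusted over 7 pairs. The model was also tested on simulated data made from the means of these 14953 genes in ETX and PBS: of 100 genes changed 1.5-fold 94 were recovered, of 100 changed 2-fold 98, and 12 others were called at each fold. Both folds are larger than any member fold (at most 1.41, for Slc2a3, and 1.31 for Gys1). Recovery of differences as small as those of the members was not tested.

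The members and lists were chosen with earlier results of these data known. Values are given heart by heart for members with an unadjusted p under 0.05 and for isoform pairs, and otherwise as mean and SD, difference or range, with more detail where 1 heart stood apart; pathway genes are named where they passed the adjusted threshold. Alternatives were other filters, eBayes options, array weights, scalings, cluster rules, covariates and hearts left out. Added after seeing the data were a preference for clusters with RefSeq transcripts, a fit of all clusters and sex (from Xist) as a covariate. Plots used matplotlib 3.10.9 (Python 3.11.15).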

Additional observations from a re-analysis of the deposited data

How the results depend on the processing

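The count of genes past the adjusted limma threshold, 533, became 909 with the filter at the median of gene means, 957 with trend and robust eBayes, 69 with the lung marker score as a covariate, 141 with the atrial score, 19 without both PBS hearts that held lung transcripts, 294 with every transcript cluster in the fit and 120 with sex as a covariate. Leaving out 1 heart gave 94 to 241. Members called numbered 5 of 25 with the median filter, where 909 of 9969 genes passed. They numbered 5 of 28 with trend and robust eBayes, where 957 of 14953 genes passed. In both fits these were Gys1, Pfkl, Pgam2, Pgk1 and Slc2a1. After a further quantile normalization 3 of 28 members were called, and 535 of 14953 genes. Members called numbered 0 with the lung, atrial or sex covariate, without both of those PBS hearts and with every cluster in the fit. With 1 heart left out they numbered 0 to 1. Of the wider pathway genes 0 passed with the lung or sex covariate, without both of those PBS hearts or with every cluster in the fit, 1 with the atrial score, and 0 to 2 with 1 heart left out. The median log2 difference of the members was 0.08. It was 0.05 after median centring of the arrays, 0.13 with the lung score and 0.082 to 0.12 with 1 heart left out. Centring also lowered the median over all genes tested, from -0.006 to -0.036. Hk1 minus Hk2 turned from -0.034 to 0.030 with the mean of a gene's clusters and to 0.094 with RefSeq clusters preferred, and ranged from -0.17 to 0.083 with 1 heart left out, being 5.06e-04 without ETX replicate 10. Of the calls 68.1% were lower in ETX, 78.6% after median centring and 58.3% after quantile normalization. The cause of these shifts was not tested; the fits with covariates or fewer hearts also have fewer residual degrees of freedom. The 9 members with an unadjusted p under 0.05 kept their sign under the 19 alternatives, or 18 for Slc2a3, which the median filter removed, and 9 of the 28 members turned sign under at least 1. No paired analysis was possible because the groups share no replicate number. With 3 hearts per group, without a detection call, and with lung, atrial, red cell and fat markers unequal between hearts, and Xist high in 1 of 3 PBS and 2 of 3 ETX hearts, differences of the size seen here lie at the edge of what could be called.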
